A study of Mus musculus with 6 samples.

Results

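The genes that encode the proteins of the mitochondrial ribosome were followed in activated CD4+ T cells with and without miPEP31. They were taken by symbol alone, as every row of the count table whose Ensembl mouse gene ID carried a name made of Mrpl or Mrps, a number and at most 1 further letter, with pseudogenes left out. This gave 78 of 52856 rows, of which 49 were Mrpl genes, named for the large subunit, and 29 were Mrps genes, named for the small subunit. The cells came from the spleen of C57BL/6 mice aged 8 weeks, which were wild type (WT, 3 libraries) or carried the miPEP31-/- genotype (KO, 3 libraries). Cells of both genotypes had received anti-CD3/28 stimulation for 48 hours, so no resting cells were compared. miPEP31 is a small peptide read from the precursor RNA of miR-31, a microRNA. The sources used here do not say how the allele was made. The Mir31 row held 0 counts in all 6 libraries, so it gives no check of the genotype labels. The labels do not say whether the libraries of a genotype came from separate mice or cultures, so p-values measure the spread between these libraries, which may be technical.

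The mitochondrial ribosome translates the few mRNAs that mitochondrial DNA encodes, all of them for subunits of the respiratory chain and the ATP synthase. Its rRNAs are transcribed inside the organelle, whereas every one of its proteins is encoded in the nucleus, made on cytosolic ribosomes and imported. Some of these proteins descend from bacterial ribosomal proteins and others were added during mitochondrial evolution. Activated T cells enlarge and remodel their mitochondria as they leave quiescence, and mitochondrial translation is part of that programme.

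Promoter sequence was examined first, because NRF1, GABP (an ETS-family factor) and YY1 are known regulators of nuclear genes for mitochondrial proteins. RefSeq promoter windows on GRCm38.p6, each running from 250 bases before to 50 bases after a start, were found for 69 of the 78 members. Exact letters were searched on both strands in these windows of 300 bases. The NRF1 letters GCGCATGCG were present in 7 members (10.1%), against 2.61% of 17491 coding genes with a window. The ETS letters CCGGAAG were present in 26 members (37.7%), against 12.9% of coding genes. The YY1 letters AAGATGGC were present in 12 members (17.4%), against 3.57%, and the E-box letters CACGTG, read by MYC among others, in 5 members (7.25%), against 8.91%. The letters of the 4 motifs do not contain one another, but NRF1 letters on both strands can overlap, as a run read the same way from either strand counts on each. A match describes letters in a window and is no evidence of binding.

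The 250 bases before the start are shown for 6 members that hold one or more of these matches and that take different places in the results below. Matches are in capitals and the reading is 5′ to 3′ on the strand of the gene. Mrpl32 and Mrpl22 hold NRF1 letters and were higher in KO, and Mrpl9 holds NRF1 letters and was lower. Each of these calls was lost on leaving out some single libraries. Mrpl53 holds ETS letters on both strands, Mrps12 was among the largest rises, and Mrps11 faces another member.
Mrpl32, chr13:14613038-14613287, minus strand: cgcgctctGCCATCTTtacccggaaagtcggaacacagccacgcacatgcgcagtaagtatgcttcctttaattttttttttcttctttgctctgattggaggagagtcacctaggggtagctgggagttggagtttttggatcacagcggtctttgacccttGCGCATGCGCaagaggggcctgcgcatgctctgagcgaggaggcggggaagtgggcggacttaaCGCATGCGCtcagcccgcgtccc
Mrpl22, chr11:58171414-58171663, plus strand: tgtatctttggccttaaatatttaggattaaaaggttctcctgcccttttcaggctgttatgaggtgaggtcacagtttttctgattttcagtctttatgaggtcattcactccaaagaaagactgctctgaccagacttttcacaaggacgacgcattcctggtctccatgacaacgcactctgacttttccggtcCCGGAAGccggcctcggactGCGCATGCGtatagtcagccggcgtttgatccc
Mrpl9, chr3:94443086-94443335, plus strand: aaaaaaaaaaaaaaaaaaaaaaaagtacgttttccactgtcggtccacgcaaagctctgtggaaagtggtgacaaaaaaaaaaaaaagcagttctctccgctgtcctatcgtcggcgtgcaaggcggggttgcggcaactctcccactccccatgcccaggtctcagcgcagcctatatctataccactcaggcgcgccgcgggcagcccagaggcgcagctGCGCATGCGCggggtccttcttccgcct
Mrpl53, chr6:83108858-83109107, plus strand: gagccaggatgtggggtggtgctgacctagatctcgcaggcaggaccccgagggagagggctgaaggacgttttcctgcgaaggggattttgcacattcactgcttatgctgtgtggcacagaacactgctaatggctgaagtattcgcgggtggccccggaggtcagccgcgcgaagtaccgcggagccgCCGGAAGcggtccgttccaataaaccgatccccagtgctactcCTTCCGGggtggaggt
Mrps12, chr7:28741822-28742071, minus strand: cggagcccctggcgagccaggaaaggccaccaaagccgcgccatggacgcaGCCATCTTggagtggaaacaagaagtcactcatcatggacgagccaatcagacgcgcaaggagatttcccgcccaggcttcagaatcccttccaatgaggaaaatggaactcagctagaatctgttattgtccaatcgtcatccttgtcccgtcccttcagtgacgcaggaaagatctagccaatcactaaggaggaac
Mrps11, chr7:78782881-78783130, plus strand: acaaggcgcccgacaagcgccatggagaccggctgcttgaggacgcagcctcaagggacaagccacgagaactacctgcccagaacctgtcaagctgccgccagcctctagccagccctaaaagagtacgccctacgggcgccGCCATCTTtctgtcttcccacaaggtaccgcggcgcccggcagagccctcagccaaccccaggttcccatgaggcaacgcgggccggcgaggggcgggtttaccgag
The Mrpl32 stretch held NRF1 letters at 3 positions, 2 of them overlapping, and YY1 letters near its far end. The annotation used for neighbours below, GENCODE M21, places the Mrpl32 start at 14613165, inside this stretch, so starts differ between the annotations. The Mrps12 window also held ETS letters at the start itself, outside the bases shown. The Mrps11 window shares its last 41 upstream bases with the upstream window of Mrpl46, read from the other strand. Members with a match were found among the higher, the lower and the uncalled genes. ETS letters were present in 10 of 24 members higher in KO, 2 of 6 lower and 14 of 39 not called that had a window. NRF1 letters were present in 3 of 24, 1 of 6 and 3 of 39, and YY1 letters in 4 of 24, 0 of 6 and 8 of 39.

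The libraries held 22865487 to 26295776 estimated counts, and 14387 rows were tested. The first principal component, with 74.9% of the variance, separated the genotypes, and the second, with 10.4%, spread the KO libraries over -35.5 to 31.8 while WT libraries lay together. Of the 10 CD4 T cell markers, 7 were lower and 1 higher in KO. Cd4 itself had a log2 fold change of -0.59 (SE 0.07, adjusted p = 0.000403 by edgeR). The marker that rose was Cd5, with 0.73 (SE 0.06, adjusted p = 8.43e-05 by edgeR). Levels are given as CPM, which is the count divided by the scaled size of the library. The summed level of these markers was 2515 to 2639 CPM in WT and 2393 to 2473 in KO. This sum includes Cd5, at 390, 355 and 377 CPM in WT and 646, 625 and 591 in KO, which offsets part of the falls. Markers of other cells were scarce. The 2 CD8 T cell markers summed to 12.5 to 15.8 CPM in WT and 15.9 to 36.9 in KO, with 1 of 2 called higher. The 6 B cell markers summed to 63.8 to 92.8 and 62.7 to 125 CPM, with 3 of 6 higher. The 4 NK markers summed to 5.91 to 9.44 and 13.1 to 23.1 CPM, and the 6 dendritic cell markers to 6.25 to 7.58 and 12 to 13.1 CPM, with 1 of each list higher. The 6 macrophage markers summed to 5.99 to 8.79 CPM in WT and 33.6 to 65.5 in KO. Mpeg1 alone was called higher and held 62.5, 37.9 and 27.8 CPM of the KO sums, while Adgre1 was at 0 in every library and Csf1r at 1 to 3 counts. The 4 neutrophil markers summed to 0.76 to 1.44 and 0 to 0.223 CPM, with S100a8 and S100a9 at 0 in every library and Ly6g lower in KO. The 4 erythroid markers summed to 0.211 to 0.476 CPM in WT and 0.223 to 0.344 in KO. The part of these differences in the results for the ribosomal protein genes was not tested. In bulk RNA, fewer cells of a type and less RNA per cell cannot be told apart.

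All 78 members passed the filter on low counts. In KO, 25 rose (32.1%; 25.1% of all genes tested rose), 6 fell (7.69%; 22.2% of all genes) and 47 passed in neither direction. Members were called in 39.7% of cases, against 47.3% of all genes, and those called were mostly higher. None changed 2-fold or more, whereas 13.8% of all genes were called with at least that change. The log2 fold changes ran from -0.42 for Mrpl48 to 0.69 for Mrps24, with a median of 0.11 against 0.01 over all genes, and the middle 50% lay between -0.05 and 0.27 against -0.34 and 0.35. The KO libraries lay entirely above WT for 35 members and entirely below for 11, where 30.6% and 28.4% of all genes did so, and overlapped WT for 32. The plot of fold changes by subunit shows this distribution.

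The number of rises depended on single libraries. On leaving out WT replicates 1, 2 and 3 in turn it was 14, 11 and 15, settings in which 35.5%, 34.8% and 36.7% of all genes were called. On leaving out KO replicates 1, 2 and 3 it was 22, 17 and 27, with 47.9%, 36.3% and 49% of all genes called. The number of falls was 3 without KO replicate 2 and 2 without WT replicate 3. Of these 6 settings, the 4 with the fewest member calls, those without a WT replicate or KO replicate 2, were also the 4 with the fewest calls over all genes. No called member changed direction in any of 14 alternative analyses, and 10 of the 31 were called in all of them: Mrpl16, Mrpl20, Mrpl51, Mrpl53, Mrpl55, Mrps12, Mrps16, Mrps23 and Mrps24 higher, and Mrpl48 lower. Mrpl30, with an edgeR adjusted p of 0.04936, was lost in 13 of the 14.

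**Figure D1:**
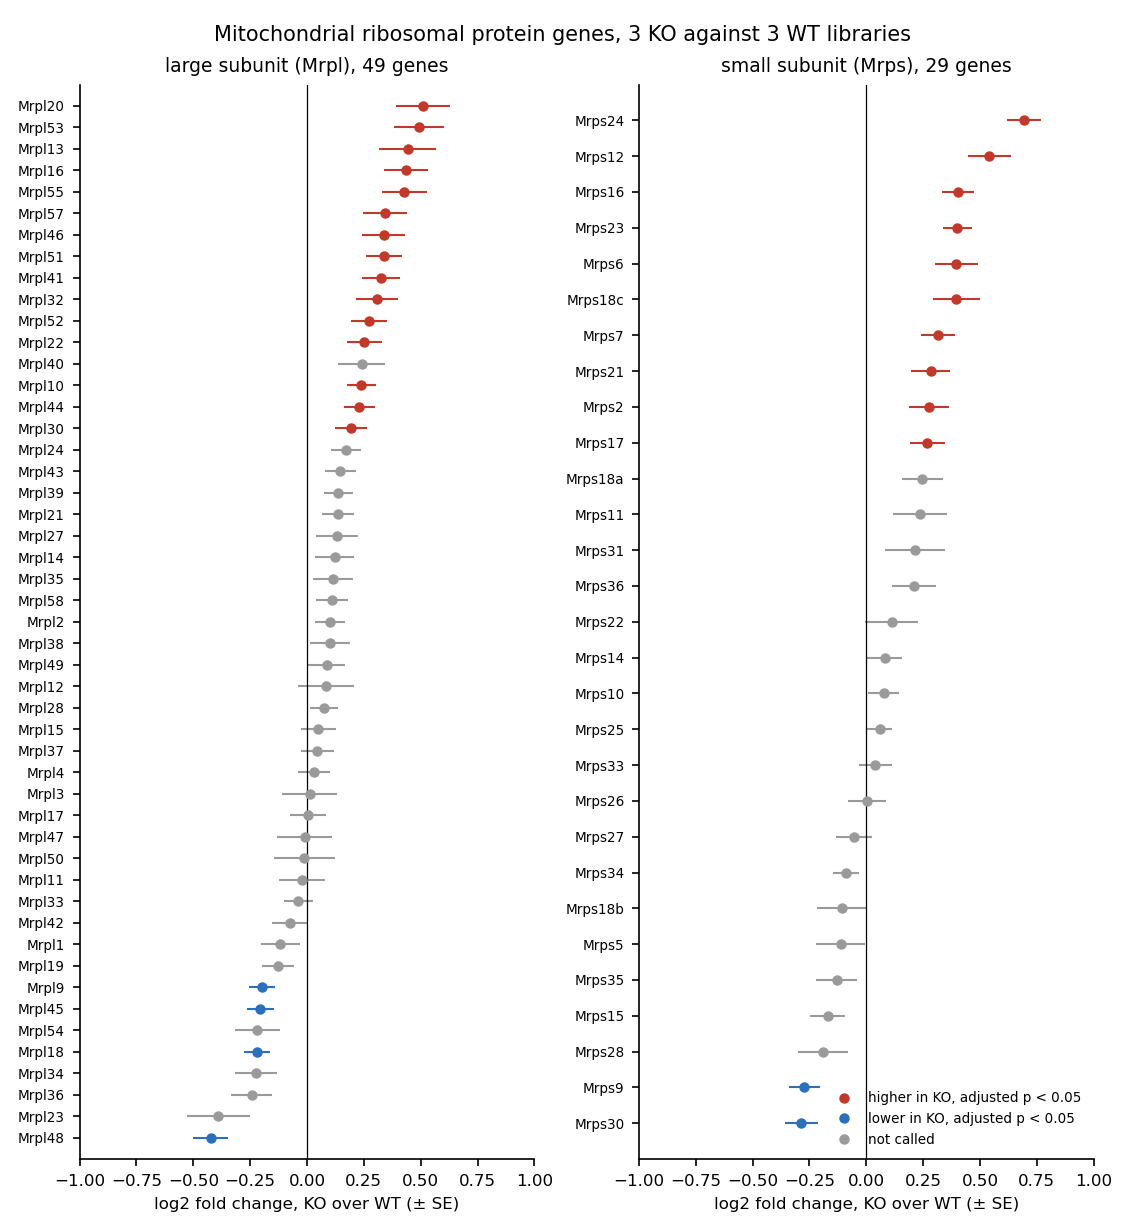
Log2 fold change, KO over WT, with its standard error, for each of the 49 Mrpl and 29 Mrps genes, ordered by size. Red points (25) are higher and blue points (6) lower in KO at an edgeR adjusted p under 0.05, grey points (47) were not called, and no gene reaches 1 or -1.

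Calls in both directions were made in each subunit. Of the 49 large-subunit genes, 15 rose (30.6%), 4 fell (8.16%) and 30 were not called, with a median log2 fold change of 0.10. Of the 29 small-subunit genes, 10 rose (34.5%), 2 fell (6.9%) and 17 were not called, with a median of 0.11. The shares over all genes tested were 25.1% higher and 22.2% lower. The summed level of large-subunit genes was 1838, 1843 and 1866 CPM in WT and 2064, 1886 and 1881 in KO. That of small-subunit genes was 1054, 1062 and 1096 CPM in WT and 1226, 1126 and 1073 in KO. KO replicate 1 was the highest library in both sums, and the groups overlapped for the small subunit only. By plain library sizes, without scaling, the small-subunit sums did not overlap. They were 1037, 1047 and 1077 CPM in WT and 1234, 1152 and 1092 in KO. The ratio of the sums, large over small, was 1.744, 1.736 and 1.702 in WT and 1.684, 1.674 and 1.753 in KO, or 1.73 ± 0.0224 and 1.70 ± 0.0429 (mean ± SD, n = 3 each). The ratios overlapped, and their means differed by less than the SD of the KO libraries (two-sided exact permutation p = 0.4, where 3 against 3 libraries cannot go below 0.1). Structures place the products of Mrps30 and Mrps18a in the large subunit despite their names. Mrps36, whose product is now better known from another complex, was kept in the small subunit. Counted by structure in this way, 15 of 51 large-subunit genes rose (29.4%) and 5 fell (9.8%). Of 27 small-subunit genes, 10 rose (37%) and 1 fell (3.7%). These counts and the ratio cover members taken by symbol and leave out 5 further subunits with other names, given below. The ratio was then 1.991, 1.975 and 1.952 in WT and 1.896, 1.886 and 1.967 in KO, where KO replicate 3 lay within the WT range. Its mean was 1.97 ± 0.0198 in WT and 1.92 ± 0.0445 in KO (mean ± SD, n = 3 each), a difference of -0.056 that was larger than the KO SD (two-sided exact permutation p = 0.2).

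The members were also divided by an origin class assigned to each gene, with subunits by symbol. Mrps18a and Mrps18b were counted as mitochondrion-specific and Mrps18c as a bacterial homologue, despite their shared name. Of the 16 small-subunit genes with a bacterial homologue, 9 rose (56.2%) and 1 fell (6.25%), with a median log2 fold change of 0.27. Of the 13 mitochondrion-specific genes named for the small subunit, 1 rose (Mrps23, 7.69%) and 1 fell (Mrps30, 7.69%), with a median of 0.04. Among these 13, Mrps30 and Mrps18a belong to the large subunit by structure. In the large subunit, 8 of 30 genes with a bacterial homologue rose (26.7%) and 2 fell (6.67%), with a median of 0.08. Of its 19 mitochondrion-specific genes, 7 rose (36.8%) and 2 fell (10.5%), with a median of 0.14. Beside these stand 25.1% higher and 22.2% lower over all genes tested. The difference between these classes was not tested.

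The KO libraries were not alike. The median deviation of the 78 members from their WT mean, on the scale of log2(CPM + 0.5), was -0.02, -0.01 and 0.02 for WT and 0.19, 0.06 and 0.08 for KO replicates 1, 2 and 3. KO replicate 1 was the highest KO library for 57 members and KO replicate 3 the lowest for 44. For small-subunit genes the KO medians were 0.30, 0.07 and 0.05, and for large-subunit genes 0.19, 0.06 and 0.12. All members together summed to 2891, 2905 and 2962 CPM in WT and to 3290, 3012 and 2955 in KO. On this scale KO replicate 3 lay within the WT range and KO replicate 1 stood above all others. By plain library sizes, without scaling, the sums did not overlap. They were 2845, 2866 and 2911 CPM in WT and 3313, 3081 and 3007 in KO. The plot of deviations by library shows how far members spread within each KO library.

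**Figure D2:**
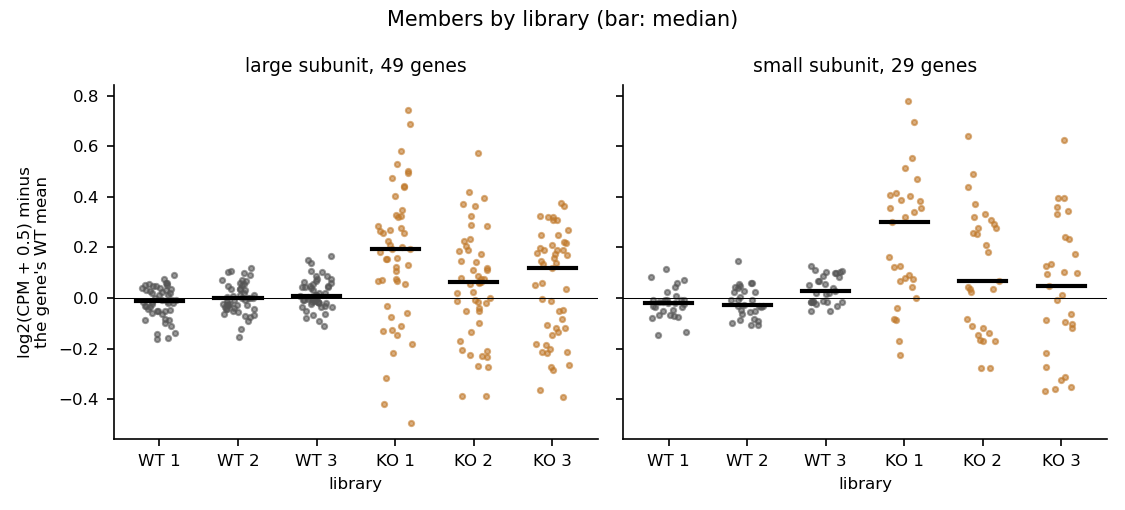
Deviation of each member from its own WT mean, in log2(CPM + 0.5), by library, for large-subunit (left) and small-subunit genes (right). Points are genes and bars are medians, which lie at 0.19, 0.06 and 0.12 (large) and 0.30, 0.07 and 0.05 (small) in KO replicates 1, 2 and 3.

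Among the small-subunit genes, Mrps24 had the largest rise of all members. Its product is the mitochondrial relative of a bacterial protein at the mRNA entry of the small subunit. It stood at 22, 23.4 and 22.1 CPM in WT and 39.0, 35.3 and 35 in KO. Every KO library was above every WT library, and the log2 fold change was 0.69 (SE 0.08, adjusted p = 0.000254 by edgeR). Its annotated exons overlap those of Urgcp on the same strand over 15.4% of their length, and reads of overlapping genes cannot be told apart here.

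Mrps12, whose product belongs to the decoding centre that checks the match between codon and tRNA, stood at 20.5, 22.2 and 22 CPM in WT and 35.2, 30.5 and 28.5 in KO. The groups did not overlap and KO replicate 1 was the highest (log2 fold change 0.54 ± 0.10 SE, adjusted p = 0.002534 by edgeR). Mrps16, which encodes an early-binding protein of the small subunit, stood at 31.3, 29.9 and 29.0 CPM in WT and 41.8, 38.0 and 39.7 in KO, again without overlap (log2 fold change 0.41 ± 0.07 SE, adjusted p = 0.002315 by edgeR). Mrps23, a mitochondrion-specific protein, stood at 39.0, 42.3 and 41.5 CPM in WT and 54.4, 55.6 and 52.1 in KO. The KO values were even among themselves and all above WT, and the log2 fold change was 0.40 (SE 0.06, adjusted p = 0.001592 by edgeR). The other small-subunit rises were those of Mrps6, Mrps18c, Mrps7, Mrps21, Mrps2 and Mrps17, between 0.27 and 0.40 on the log2 scale. Each of these was lost on leaving out at least 1 library.

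Among the large-subunit genes, Mrpl20, the relative of a bacterial protein needed early in large-subunit assembly, stood at 33.8, 39.1 and 39.4 CPM in WT and 62.9, 50.1 and 46.9 in KO. All KO libraries lay above WT, with KO replicate 1 well above the other KO libraries (log2 fold change 0.51 ± 0.12 SE, adjusted p = 0.009086 by edgeR). Mrpl53 stood at 13.4, 12.1 and 14.2 CPM in WT and 19.3, 19.9 and 16.6 in KO, without overlap (log2 fold change 0.49 ± 0.11 SE, adjusted p = 0.006942 by edgeR). Its exons overlap the same-strand gene model Gm42688 over 88% of their length, so part of its reads may be assigned to either. Mrpl13, an early-assembling protein with a bacterial relative, stood at 32.0, 36.7 and 33.6 CPM in WT and 55.2, 45 and 38.9 in KO. Its KO libraries spread widely but stayed above WT (log2 fold change 0.44 ± 0.13 SE, adjusted p = 0.02062 by edgeR), and adjusted p was 0.08325, 0.07148 and 0.05516 without WT replicate 1, WT replicate 3 or KO replicate 2.

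Mrpl16, which encodes a protein next to the peptidyl transferase centre, stood at 17.4, 18.4 and 18.0 CPM in WT and 27.1, 23.2 and 22.5 in KO (log2 fold change 0.43 ± 0.10 SE, adjusted p = 0.006723 by edgeR). Mrpl55 stood at 11.4, 12.4 and 10.9 CPM in WT and 16.5, 15.1 and 15.0 in KO (log2 fold change 0.43 ± 0.10 SE, adjusted p = 0.008801 by edgeR). Neither gene overlapped between genotypes. The remaining large-subunit rises, from Mrpl30 at 0.20 to Mrpl57 at 0.34 on the log2 scale, were those of Mrpl10, Mrpl22, Mrpl30, Mrpl32, Mrpl41, Mrpl44, Mrpl46, Mrpl51, Mrpl52 and Mrpl57. Each of these except Mrpl51 was lost on leaving out at least 1 library. Mrpl22 was lost in 8 of the 14 alternative analyses, DESeq2 and the replicate block among them.

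**Figure D3:**
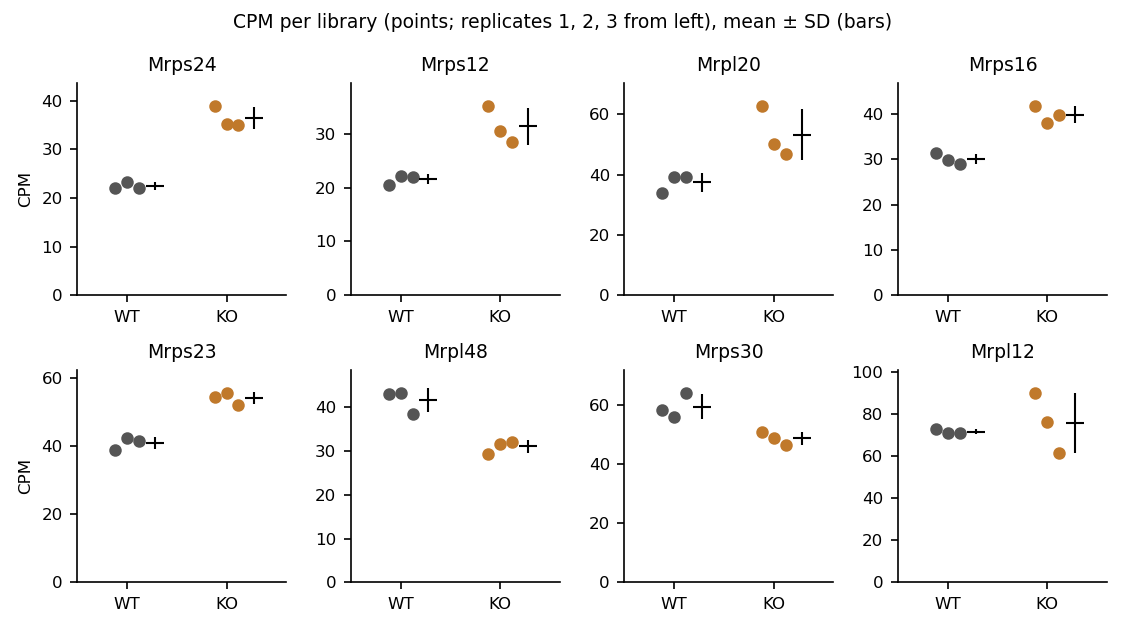
CPM of 8 members in each library (points, replicates 1 to 3 from left) with the mean and SD (bars, n = 3), on axes that start at 0. Mrps24, Mrps12, Mrpl20, Mrps16 and Mrps23 lie above WT in every KO library, Mrpl48 and Mrps30 below, and Mrpl12 spreads from 61.7 to 90.2 CPM in KO around WT values of 71.0 to 73.0.

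The 6 falls were led by Mrpl48. Mrpl48, a mitochondrion-specific protein, stood at 43.0, 43.2 and 38.4 CPM in WT and 29.3, 31.6 and 32.1 in KO. Every KO library was below every WT library (log2 fold change -0.42 ± 0.08 SE, adjusted p = 0.002847 by edgeR). Mrps30, named for the small subunit but built into the large one, stood at 58.2, 55.7 and 63.9 CPM in WT and 50.6, 48.8 and 46.3 in KO. It too did not overlap (log2 fold change -0.29 ± 0.07 SE, adjusted p = 0.01344 by edgeR), with an adjusted p of 0.05335 without WT replicate 3.

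Mrps9, whose bacterial relative reaches the tRNA in the peptidyl site, stood at 60.9, 60.3 and 64.0 CPM in WT and 54.8, 50.9 and 47.7 in KO (log2 fold change -0.27, adjusted p = 0.01389 by edgeR). Its adjusted p was 0.05619 without WT replicate 3. Mrpl18, a protein of the central protuberance, stood at 84.5, 82.5 and 80.8 CPM in WT and 72.7, 68.4 and 71.7 in KO (log2 fold change -0.22, adjusted p = 0.01422 by edgeR). Exons of Mrpl18 overlap those of Tcp1 on the opposite strand over 10.1% of their length. Mrpl45, which lies at the exit tunnel and docks the ribosome to the inner membrane, stood at 95.7, 86.7 and 90.2 CPM in WT and 78.1, 78.4 and 80.0 in KO (log2 fold change -0.20, adjusted p = 0.02340 by edgeR). Mrpl9, the relative of a bacterial large-subunit protein, stood at 81.5, 77.8 and 79.0 CPM in WT and 71.7, 67.6 and 68.4 in KO (log2 fold change -0.20, adjusted p = 0.02220 by edgeR). In all 4 genes the KO libraries were below WT without overlap. Mrpl18, Mrpl45 and Mrpl9 were each lost without WT replicate 1 and without KO replicate 2, with adjusted p between 0.05263 and 0.08714 in those settings. Mrpl18 and Mrpl9 were also lost without WT replicate 2 (0.05295 and 0.05688), and Mrpl45 and Mrpl9 without WT replicate 3 (0.06061 and 0.05952).

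Several members with known special roles were not called. Mrpl12, which forms the stalk that recruits translation factors, stood at 73.0, 71.3 and 71.0 CPM in WT and 90.2, 76.3 and 61.7 in KO. The KO libraries surrounded WT (log2 fold change 0.08 ± 0.12 SE, adjusted p = 0.6077 by edgeR). Mrpl58, a peptidyl-tRNA hydrolase that releases stalled chains and is also built into the large subunit, stood at 26.8, 28.1 and 27.3 CPM in WT and 28.7, 28.9 and 31.1 in KO (log2 fold change 0.11, adjusted p = 0.2397 by edgeR). Its KO libraries lay just above WT, but the difference did not pass the test.

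Mrpl23, at the exit tunnel, had the lowest counts of the members, with 6.23, 6.92 and 7.65 CPM in WT and 5.04, 5.17 and 5.67 in KO. Its groups did not overlap, but the log2 fold change of -0.39 (SE 0.14) narrowly missed the threshold (adjusted p = 0.05011 by edgeR). It was 0.04424 without KO replicate 3. A pseudogene row, Mrpl23-ps1, held more counts than the gene in every library, 724 to 809 in WT and 658 to 770 in KO, so the division of reads between the copies is uncertain. Mrps18a, a large-subunit protein by structure, stood at 28.8, 29.7 and 28.8 CPM in WT and 38.7, 33.7 and 31.2 in KO (log2 fold change 0.25, adjusted p = 0.05449 by edgeR, and 0.01589 without KO replicate 3). Mrps36, whose product is now better known as part of the oxoglutarate dehydrogenase complex, stood at 19.5, 19.0 and 20.7 CPM in WT and 24.4, 23.6 and 20.4 in KO. It overlapped between genotypes (log2 fold change 0.21, adjusted p = 0.1023 by edgeR, and 0.02974 without KO replicate 3).

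Levels between genes were compared per kilobase of merged exon length, in WT. Mrpl18 was highest at 59.1 CPM per kb, followed by Mrpl12 at 46.9 and Mrps15 at 36.8. Mrpl23 was lowest at 1.42, preceded by Mrps35 at 3.49 and Mrpl47 at 4. Merged exons include long rare transcripts, and by mean coding transcript length the first trio ranked 5, 9 and 6 and the last trio 69, 76 and 78. Mrps15 stood at 60.3, 65.0 and 61.8 CPM in WT and 58.9, 57.3 and 50.1 in KO and was not called (adjusted p = 0.1040 by edgeR, and 0.04129 without KO replicate 1). Mrps35 (31.6, 27.9 and 30.9 CPM in WT, 30.1, 26.7 and 25.8 in KO) and Mrpl47 (15.7, 18.9 and 18.3, then 19.7, 17.5 and 15.4) overlapped between genotypes and were not called.

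Other parts of the mitochondrial translation machinery moved in mixed directions. For the counts that follow, 25.1% of all genes tested rose and 22.2% fell. Of 5 further subunits with other names, 2 rose and 1 fell. Aurkaip1, a small-subunit protein, stood at 50.3, 48.3 and 46.8 CPM in WT and 61.5, 56.0 and 61.3 in KO (log2 fold change 0.30, adjusted p = 0.007116 by edgeR). Chchd1, also of the small subunit, stood at 29.7, 31.8 and 31.0 CPM in WT and 43.7, 35 and 35.8 in KO (log2 fold change 0.31, adjusted p = 0.03122 by edgeR). It came to 0.20 on the log2 scale when KO replicate 1 was left out (adjusted p = 0.05073), and it was also lost without each WT replicate in turn, with adjusted p between 0.07439 and 0.1062. Gadd45gip1, of the large subunit, stood at 89.0, 86.6 and 85.3 CPM in WT and 67.9, 74.7 and 76.1 in KO (log2 fold change -0.25, adjusted p = 0.01271 by edgeR). None of these 3 overlapped between genotypes.

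Of 29 genes for assembly of the ribosome and modification of its rRNA, 9 rose and 3 fell, with a median log2 fold change of 0.17. The rises numbered 4 without WT replicate 1 and 5 without WT replicate 2 or KO replicate 2. Mterf3, which takes part in ribosome biogenesis, rose from 19.7, 19.9 and 20 CPM to 32.3, 28.0 and 28.4 (log2 fold change 0.57, adjusted p = 0.000973 by edgeR). Afg3l2, a subunit of the inner-membrane protease that matures the ribosomal protein MRPL32, fell from 226, 249 and 236 CPM to 101, 117 and 133 (log2 fold change -1.02, adjusted p = 0.000154 by edgeR). This was the one gene of the list past 2-fold. Mrpl32 itself stood at 28.2, 29.8 and 27.1 CPM in WT and 39.6, 33.4 and 32.4 in KO (log2 fold change 0.31, adjusted p = 0.02728 by edgeR). It was lost without KO replicate 2 or any one WT replicate, with adjusted p between 0.05132 and 0.09837. Rbfa, a small-subunit assembly factor, had a log2 fold change of -0.34 (SE 0.06, adjusted p = 0.003446 by edgeR).

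Of 15 translation factors, 3 rose and 4 fell, with a median of 0.05. Only 1 or 2 rose on leaving out any library, and 2 fell on leaving out any WT library. Tufm, the elongation factor that brings tRNA to the ribosome, stood at 121, 116 and 117 CPM in WT and 100, 103 and 98.8 in KO (log2 fold change -0.23, adjusted p = 0.009024 by edgeR). Guf1 (-0.42, adjusted p = 0.009364 by edgeR) also fell, and Slirp, a partner of LRPPRC in mRNA stability, rose (0.35, adjusted p = 0.01500, and 0.06237 without WT replicate 3). Of 20 mitochondrial aminoacyl-tRNA synthetases and related enzymes, 2 rose and 8 fell, with a median of -0.12. Without WT replicate 1, 0 rose and 5 fell, and without WT replicate 3, 1 rose. Iars2, the isoleucyl-tRNA synthetase, stood at 127, 132 and 136 CPM in WT and 93.3, 88.4 and 83.6 in KO (log2 fold change -0.57, adjusted p = 0.000269 by edgeR), and Vars2 and Tars2 had log2 fold changes of -0.56 and -0.54. All 3 were below WT in every KO library.

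Among the RNAs that mitochondrial DNA encodes, calls fell in both directions. The small-subunit rRNA mt-Rnr1 fell from 340, 305 and 294 CPM to 193, 157 and 205 (log2 fold change -0.76 ± 0.11 SE, adjusted p = 0.000793 by edgeR). The large-subunit rRNA mt-Rnr2 stood at 423, 415 and 375 CPM in WT and 417, 331 and 394 in KO, overlapped, and was not called (-0.08, SE 0.09, adjusted p = 0.4878 by edgeR). The sources used here do not say how RNA was selected for the libraries, so these rRNA values are what remained after library preparation. Of the 13 mRNAs, 1 rose (mt-Cytb, 0.61) and 3 fell (mt-Co1, mt-Nd5 and mt-Nd6). There were 3 rises without WT replicate 2 and 5 falls without KO replicate 1. The fall of mt-Co1 from 14176, 13739 and 13079 CPM to 9042, 8615 and 9703 (-0.58, adjusted p = 0.000189 by edgeR) set most of the summed mRNA level, which was 20296 to 21279 CPM in WT and 16033 to 17582 in KO. Nuclear copies of mitochondrial DNA share sequence with these genes, and the counting of such reads is not given. Of 11 genes for mitochondrial DNA transcription and upkeep, 2 rose and 3 fell, and 1 rose without KO replicate 2. Tefm, the transcription elongation factor, had a log2 fold change of 0.66, Twnk, the replicative helicase, of -0.73, and Tfb2m, a transcription initiation factor, of -0.53.

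Among the cytosolic ribosomal proteins, falls outnumbered rises. Of 78 tested genes among 80 listed, 1 rose (1.28%), 38 fell (48.7%) and 39 were not called, with a median log2 fold change of -0.15. Over all genes tested, 25.1% rose and 22.2% fell. In KO, 50 of the 78 lay entirely below WT, as 28.4% of all genes did. The difference from the mitochondrial ribosomal proteins was not tested. The falls numbered 25 to 43 on leaving out 1 library, the lowest without WT replicate 2 or WT replicate 3. They numbered 31 by plain library sizes and 45 by upper-quartile scaling. Their summed level was 81224, 81754 and 81429 CPM in WT and 74814, 70085 and 74774 in KO. Rpl5 fell from 99.4, 96.9 and 96.8 CPM to 63.2, 67.1 and 63.3 (log2 fold change -0.60, adjusted p = 0.000137 by edgeR), and Rpl3 and Rpl37a had log2 fold changes of -0.35 and -0.54. Many of these genes have processed pseudogenes that share reads. The plot by gene group sets the ribosomes side by side.

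**Figure D4:**
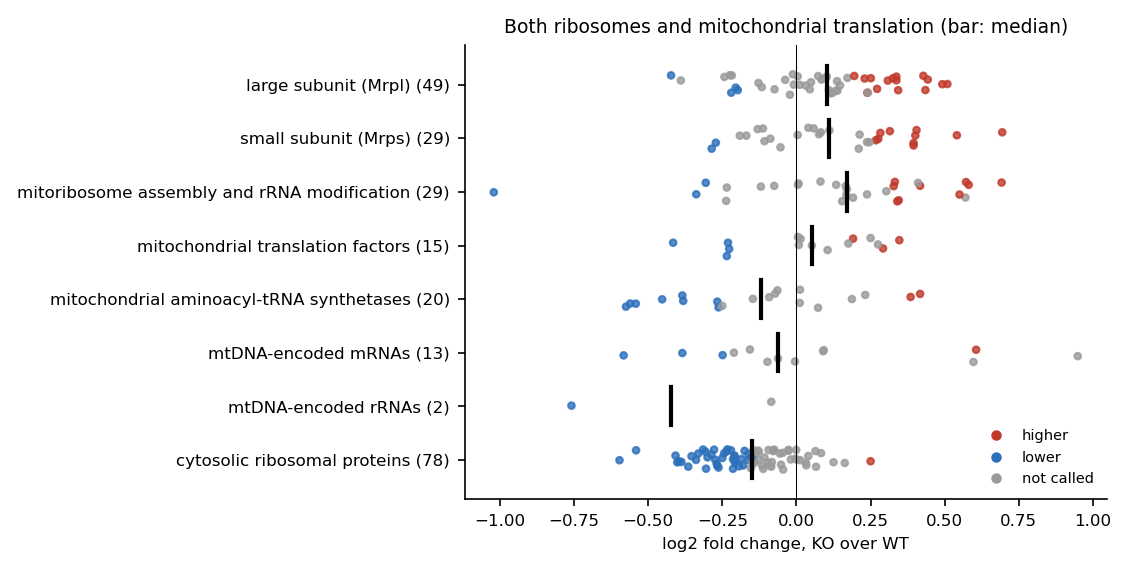
Log2 fold change, KO over WT, of each tested gene in 8 groups, with the number tested in brackets and the median as a bar. Medians lie at 0.10 and 0.11 for the Mrpl and Mrps genes, at 0.17 for assembly genes, at -0.12 for aminoacyl-tRNA synthetases and at -0.15 for cytosolic ribosomal proteins.

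Of 10 regulators named for mitochondrial biogenesis, 9 were tested, 1 rose and 2 fell. Nrf1 stood at 58.9, 61.4 and 62.1 CPM in WT and 74.6, 71.8 and 66.5 in KO (log2 fold change 0.22, adjusted p = 0.02361 by edgeR). It was lost without KO replicate 2 or any one WT replicate, with adjusted p between 0.05749 and 0.09167. Yy1 stood at 181, 179 and 194 CPM in WT and 136, 149 and 158 in KO (log2 fold change -0.32, adjusted p = 0.007445 by edgeR), and Gabpb2, a GABP subunit, had a log2 fold change of -0.27 (adjusted p = 0.01251 by edgeR, and 0.05988 without WT replicate 2). Myc stood at 270, 261 and 311 CPM in WT and 246, 213 and 143 in KO. Its KO libraries were below WT and spread widely, and the log2 fold change of -0.48 (SE 0.18, adjusted p = 0.05269 by edgeR) was -0.66 and -0.30 with adjusted p of 0.02867 and 0.02159 without KO replicate 1 or KO replicate 3.

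Divergent neighbours were more frequent among the members than among all coding genes. By GENCODE M21 on GRCm38, 33 of 78 (42.3%) have a coding neighbour on the opposite strand whose start lies within 1000 bases, against 2384 of 21951 coding genes (10.9%). Genes that overlap each other at their starts are included. Of these neighbours 31 were tested, with the pair of Mrps11 and Mrpl46 counted from both sides. Over all genes tested, 25.1% rose, 22.2% fell and 52.7% were not called. In 3 pairs both genes rose, in 1 both fell, and in 1 the member rose and the neighbour fell. In 7 pairs the member rose and the neighbour was not called, in 2 the member fell and the neighbour was not called, in 7 only the neighbour passed the test, and in 10 neither did.

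Both genes rose for Mrpl13 and Mtbp (neighbour log2 fold change 0.62), Mrpl30 and Mitd1 (0.93), and Mrpl44 and Wdfy1 (1.01). The calls of Mrpl13, Mrpl30 and Mrpl44 were lost in 3, 13 and 5 of the 14 alternative analyses. Mrpl18 fell with Tcp1 (-0.43), a subunit of the cytosolic chaperonin. Exons of Mrpl13, Mrpl44 and Mrpl18 overlap those of these neighbours on the opposite strand, over 4.16%, 7.66% and 10.1% of their length. Exons of Mrpl30 overlap no other gene. Tcp1 had a mean of 845 CPM in WT, against 82.6 for Mrpl18. Use of strand is not stated, so reads from the overlaps cannot be told apart. Their part in the shared directions was not tested. Mrpl51 rose by 0.34 on the log2 scale while Ncapd2, a condensin subunit whose start lies 100 bases away, had -0.68 (adjusted p = 0.000114 by edgeR). Mrps12 rose while Sars2, the mitochondrial seryl-tRNA synthetase 172 bases away, had a log2 fold change of -0.25 that missed the threshold (adjusted p = 0.06118 by edgeR). Mrpl43, at 0.15, was not called beside Twnk, at -0.73, and their exons overlap on opposite strands over 33.4% of the length of Mrpl43. Mrps11 and Mrpl46 are each other's neighbour, with starts 412 bases apart by GENCODE M21. By the GENCODE positions the genes overlap, and shared exon bases cover 12.2% of the exon length of Mrpl46. The RefSeq starts used for the promoter windows differ and lie closer together, with 41 upstream bases shared. Their log2 fold changes were 0.24 (adjusted p = 0.1324 by edgeR, and 0.0248 without KO replicate 3) and 0.34 (adjusted p = 0.01933 by edgeR). Mrpl46 was lost without any one WT replicate, with adjusted p between 0.05628 and 0.0666.

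**Figure D5:**
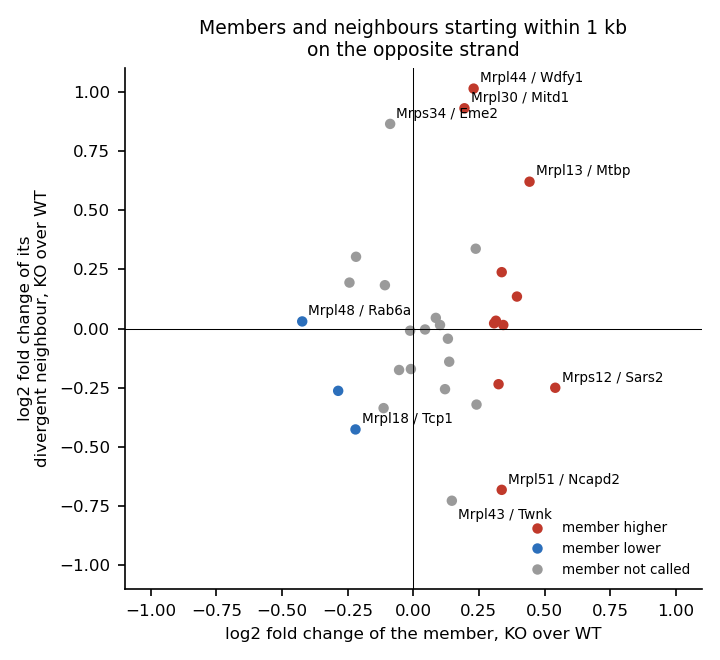
Log2 fold change of each member (x axis) against that of its divergent coding neighbour (y axis), both KO over WT, for the 31 pairs with a tested neighbour, coloured by the call of the member. Points lie on all sides of the origin, with Mrpl13, Mrpl30 and Mrpl44 and their neighbours at the upper right and Mrpl51 and Ncapd2 at the lower right. The Mrps11 and Mrpl46 pair appears from both sides.

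The members were spread over the genome. Chromosome 11 carried 11 of them, chromosome 17 carried 8, chromosome 6 carried 7 and chromosome 7 carried 6, and none lay on chromosomes 12, 18, X or Y. Mrps24 lies on chromosome 11 from 5703983 to 5715680, Mrps12 on chromosome 7 from 28739641 to 28741820, and Mrpl48 on chromosome 7 from 100545751 to 100608301, all 3 on the minus strand of GRCm38. Exons of 17 members overlap those of another gene over at least 10% of their length. Of these 17, 6 rose (35.3%) and 1 fell (5.88%). Of the other 61, 19 rose (31.1%) and 5 fell (8.2%), with a median log2 fold change of 0.10. Over all genes tested, 25.1% rose and 22.2% fell.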

How the data were processed

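The estimated counts per gene, as deposited by the authors, were made by a counter that the sources used here do not name. They cover 6 RNA-seq libraries, 3 WT and 3 KO, of 22865487 to 26295776 counts each. Of the values above 0, 71.2% to 72.7% were whole numbers. The labels' protocols name Trizol extraction and a TruSeq library kit. Bowtie 0.12.2 and the build mm8 stand in the submitters' processing notes with no step given. Use of strand is not stated. Positions come from GENCODE M21 (GRCm38) by gene ID, without conversion.

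Counts were rounded, filtered with filterByExpr (minimum count 10), scaled by TMM and tested with the edgeR 4.0.16 quasi-likelihood test (robust, no covariate), with Benjamini-Hochberg adjustment over 14387 rows and a threshold of 0.05. CPM are TMM-scaled. SE are of log2 fold changes. Alternatives ran in limma 3.58.1 and DESeq2 1.42.0 under R 4.3.3. In data simulated at this design, 18% of changes of 0.32 on the log2 scale, 48% of 1.5-fold and 72% of 2-fold changes were called, and 9.92% of 131 calls were false. Alternatives were another scaling, filter or tool, a replicate block, leaving out each library, subunits by structure, and, added after seeing the data, another gene length and members without exon overlap.

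The members and lists were chosen with earlier results of these data known. The rule for named members took the 8 largest called rises and falls, the 2 smallest p-values of each subunit, the 3 highest and 3 lowest levels per kilobase, and members with a known special role. From each companion list it took up to 3 called genes by p-value. Members named for a promoter, a neighbour or a near-threshold value beyond this were chosen after their values were seen.

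Same-numbered WT and KO libraries did not deviate together (r = 0.001, -0.007 and -0.016), and the main test used no pairing. These correlations cannot show whether same-numbered libraries were collected or prepared together. A deposited table of 30 genes holds 0 members and was not used.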

Additional observations from a re-analysis of the deposited data

How the results depend on the processing

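No called member changed direction under any alternative, and the median log2 fold change of all genes stayed between -0.04 and 0.06. Leaving out 1 library gave 11 to 27 members higher and 2 to 9 lower (25 and 6 with all libraries). It gave 6 to 14 higher and 1 to 6 lower in the large subunit (15 and 4), and 5 to 13 higher and 0 to 4 lower in the small subunit (10 and 2). Large-subunit falls numbered 2 by plain library sizes and 2 with a replicate block, and small-subunit falls 1 when subunits were assigned by structure. The cause was not tested, apart from the loss of 1 library and the reassignment of Mrps30. Of the 31 called members, 24 were also called with the replicate block, which gave 20 higher and 4 lower. Among called members, 72.7% were higher by upper-quartile scaling, 80.6% by the scaling reported and 87.9% by plain library sizes. In simulation at these depths and 3 libraries a group, 18% of changes of 0.32 on the log2 scale were called. The simulation changed far fewer genes than were called in the data, which makes its adjusted threshold stricter, so that share need not hold for the members. Of the members not called, only Mrpl23 (-0.39) reached that size. A member that was not called may still differ.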
